A study of Mus musculus with 2 samples.

Results

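The 45 genes described here make, modify, activate and store fatty acids, wax alcohols and ceramides. They were chosen as a list of lipid genes by name, with earlier results of these data known. Each was read from the array probe sets annotated to that gene alone. Of the 45 genes, 44 had such a probe set, out of 18193 genes on the array, and Acsl1 was not analysed here. In the cytosol, acetyl groups are joined into palmitate, which is activated by coupling to coenzyme A and can then be elongated and desaturated. The activated chains are reduced to fatty alcohols for wax, esterified into triglyceride droplets or joined to a sphingoid base as ceramide. In skin this chemistry is known above all from the sebaceous gland, whose cells fill with wax esters and triglycerides, and from the epidermal barrier, which is rich in ceramides.

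Gene expression was measured in 2 populations of hair follicle cells sorted from the back skin of CD-1 mice at postnatal day 4. Both came from mice carrying K14-RFP, a red reporter for a basal keratinocyte keratin, together with Sox9-EGFP, a green reporter for a transcription factor of follicle stem cells. Early bulge cells were sorted as high for both colours, and the bulge is the niche of those stem cells. The second sample, from the outer root sheath outside the bulge (non-bulge ORS), had high red and no green fluorescence. Follicles had been freed by enzymes and low-speed spinning, and sorting gates had removed dead cells and the large, differentiated ones. The sources used here give no number of animals for either sample. There was 1 array per population (called early bulge and ORS below), so differences cannot be set against replicate error and carry no p-value. The values are signals per probe set on a linear scale, and ratios are early bulge over ORS. A signal below 57.8, the 40th percentile of all signals, was set to that floor, and a ratio with 1 array at the floor is written as at least N-fold. Probe sets of one gene gave the only measure of error, a technical one, with an SD of 0.41 on the log2 scale. In RNA of sorted cell pools, a larger share of cells using a gene and more of its RNA per cell cannot be told apart.

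Most of the lipid genes had a higher signal in early bulge, and the widest gaps lay at single genes outside the synthesis of palmitate. Later steps were not wider throughout, as the median log2 ratio was 0.18 for the ceramide step and 0.30 for the synthesis step. All 44 genes reached the floor on at least 1 array. Of these, 16 (36.4%) were at least 2-fold higher in early bulge, where the share over all 13252 measured genes was 7.30%. Because the list was chosen with earlier results of these data known, this comparison is a description and not a test. On the ORS array 3 (6.82%) were at least 2-fold higher, against 4.78% of all measured genes. The other 25 differed by less than 2-fold, and 19 of these leaned to early bulge and 6 to ORS. At any size, 35 of the 44 were higher in early bulge, against 53.0% of all measured genes, and 29 of the 44 after centring both arrays on their medians. The median log2 ratio was 0.52 over the lipid genes and 0.04 over all measured genes. It was 0.87 over 10 keratinocyte markers, 4 of them at least 2-fold higher in early bulge, and -3.60 over 9 dermal fibroblast markers. The part of such differences in cell content in the lipid gene values was not tested. At 4-fold, 8 genes were higher in early bulge (1.87% of all measured genes passed) and 1 in ORS (1.32%). Sdr16c6, Acsbg1, Far2, Cidea, Fa2h, Elovl3, Plin2 and Cers4 made up the 8, and Fads2 was the other. Median centring lowered the median log2 ratio of all measured genes by 0.21. The 2-fold counts were then 15 and 5 for the lipid genes and 706 and 1019 for all measured genes.

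**Figure D1:**
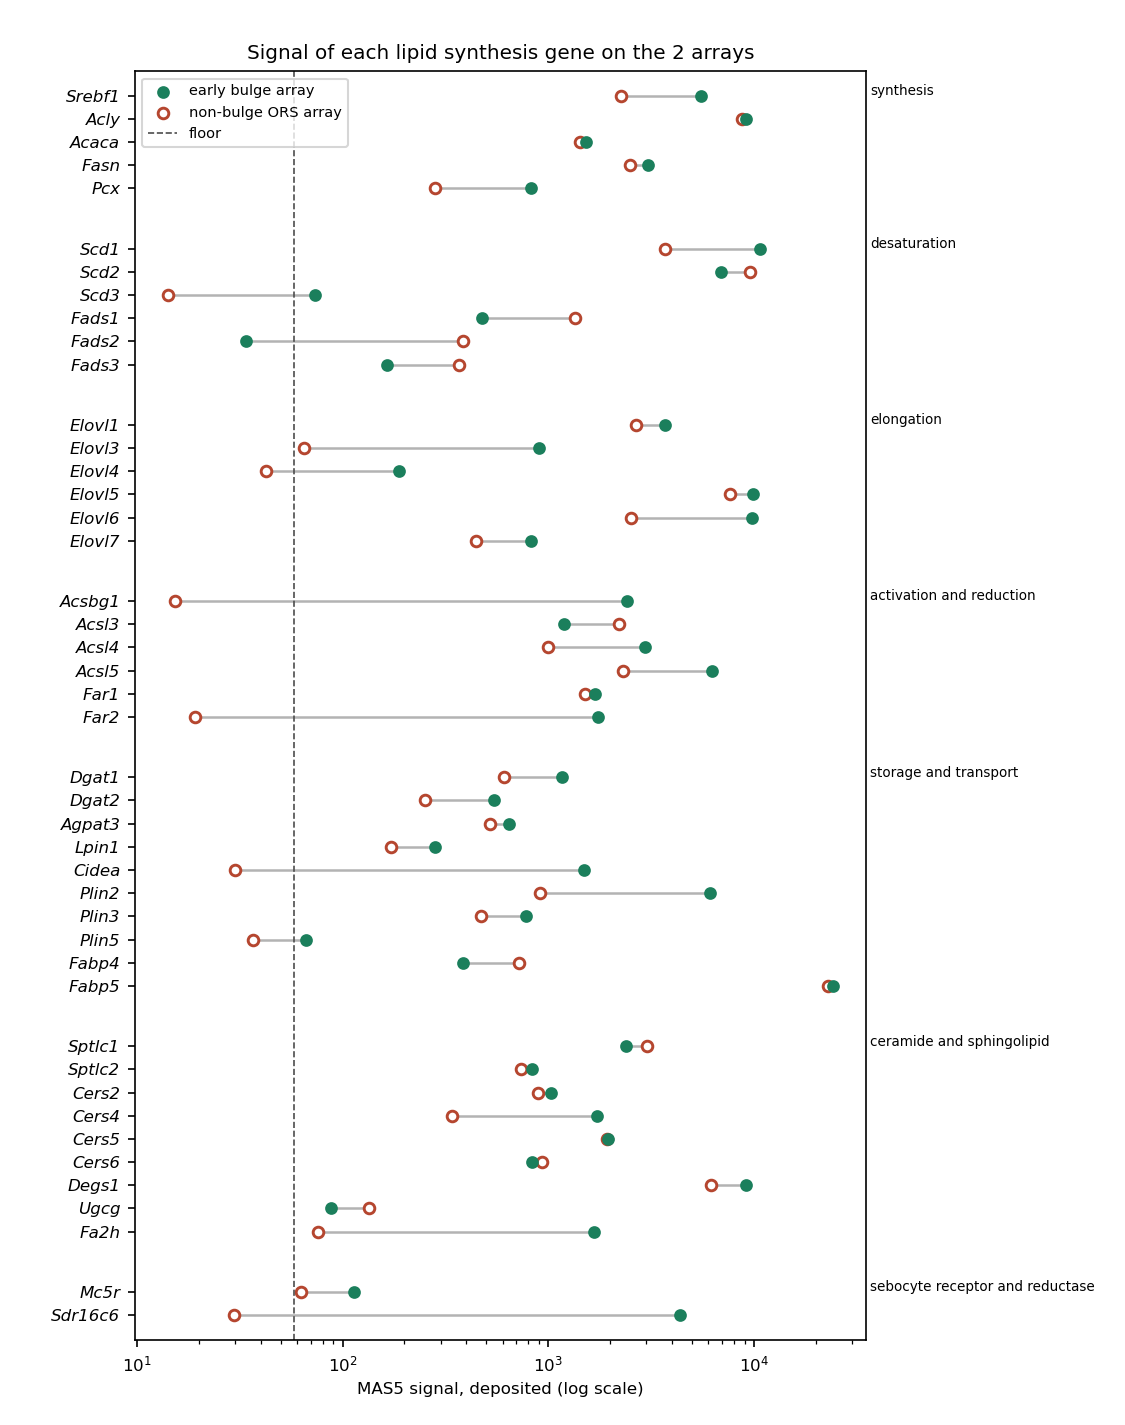
Deposited signal (log scale) of the 44 lipid genes in early bulge (filled) and non-bulge ORS (open), ordered by step, each point 1 array and the brightest probe set of the gene. The dashed line is the floor of 57.8. Acsbg1, Far2, Cidea and Sdr16c6 lie left of the floor in ORS and far right of it in early bulge, while Fads2 lies left of it in early bulge.

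Promoter sequence was at hand for 6 of the 9 genes that were 4-fold apart. Shown here are the 250 bases before the RefSeq start site (GRCm38.p6) of the 3 with the largest ratios towards early bulge, and of Fads2, which went the other way. The window of Sdr16c6 is chr4:4077515-4077764 on the minus strand, that of Acsbg1 chr9:54661886-54662135 on the minus strand, that of Far2 chr6:148047166-148047415 on the plus strand and that of Fads2 chr19:10101504-10101753 on the minus strand. Capitals mark matches, on either strand, to CCAAT (the NF-Y box), GGGCGG (a GC box), AGGTCA (a nuclear receptor site), CACGTG (an E-box) or TCACNCCAC (a sterol regulatory element).
Sdr16c6: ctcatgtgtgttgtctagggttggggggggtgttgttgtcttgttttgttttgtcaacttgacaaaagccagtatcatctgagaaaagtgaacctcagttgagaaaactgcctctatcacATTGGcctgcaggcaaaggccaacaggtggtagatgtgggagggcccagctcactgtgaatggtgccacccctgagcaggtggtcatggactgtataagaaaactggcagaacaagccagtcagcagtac
Acsbg1: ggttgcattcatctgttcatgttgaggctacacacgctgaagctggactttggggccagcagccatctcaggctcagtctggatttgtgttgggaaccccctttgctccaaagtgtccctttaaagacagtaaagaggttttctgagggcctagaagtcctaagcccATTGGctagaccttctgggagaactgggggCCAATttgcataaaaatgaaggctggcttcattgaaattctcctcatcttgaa
Far2: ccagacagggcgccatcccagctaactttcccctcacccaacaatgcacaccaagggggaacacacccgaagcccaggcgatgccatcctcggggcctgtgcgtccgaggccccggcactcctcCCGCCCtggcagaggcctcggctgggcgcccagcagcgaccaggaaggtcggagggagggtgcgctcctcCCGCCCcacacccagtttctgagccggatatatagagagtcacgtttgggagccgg
Fads2: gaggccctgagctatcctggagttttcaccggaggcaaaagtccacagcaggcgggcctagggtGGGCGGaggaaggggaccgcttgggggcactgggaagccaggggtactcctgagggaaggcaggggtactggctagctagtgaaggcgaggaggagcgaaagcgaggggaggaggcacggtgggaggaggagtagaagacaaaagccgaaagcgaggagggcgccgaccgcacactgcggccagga

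Sdr16c6 had 1 CCAAT match and Acsbg1 had 2, while Far2 had 2 GGGCGG matches and Fads2 had 1. Of the 2 further genes with a sequence, Plin2 had 1 CCAAT match and 1 AGGTCA match, and Cers4 had 1 GGGCGG match. Matches did not overlap in these windows. None of the 6 windows held CACGTG or TCACNCCAC. Over all 32851 promoters in the table, 33.8% held CCAAT, 32.7% GGGCGG, 6.02% CACGTG and 1.05% TCACNCCAC, and 4607 promoters held AGGTCA. The table had 41 promoters for 34 of the lipid genes. Of these promoters, 20 (48.8%) held CCAAT, 24 (58.5%) GGGCGG, 7 (17.1%) AGGTCA, 5 (12.2%) CACGTG and 1 (2.44%) TCACNCCAC. A match describes letters and is no evidence of binding.

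The enzymes that build palmitate had nearly the same signal on both arrays by their brightest probe sets, while their regulator was higher in early bulge. Srebf1, the transcription factor that activates lipid synthesis genes, gave 5510 in early bulge and 2264 in ORS, a 2.43-fold difference on its single probe set. Acly, which splits citrate into cytosolic acetyl-CoA, gave 9182 and 8714 (log2 ratio 0.08). Acaca, the carboxylase that makes malonyl-CoA, gave 1521 and 1434 (0.08). Fasn, which assembles palmitate from these units, gave 3066 and 2486 (0.30). These 3 differences were smaller than the 0.41 SD between probe sets, and those of Acly and Acaca turned to -0.14 and -0.13 after median centring. Dimmer probe sets lay further apart, from -0.14 to 0.81 for Acly and at least 0.87 for Acaca, and Acaca had a log2 ratio of 0.76 when its probe sets were averaged. Pcx, a pyruvate carboxylase that feeds citrate export, gave 823 and 281 (2.93-fold). For Pcx, 2 of 4 control probe sets of the array reached the floor on both arrays, with log2 ratios of 1.69 and -0.33. The ratios of Srebf1 and Pcx rest on probe sets with the _a suffix, which marks probes shared by transcripts of a gene.

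Desaturases went in opposite directions. Scd1, the main stearoyl-CoA desaturase of skin, which places the initial double bond in a saturated chain, gave 10684 in early bulge and 3682 in ORS (2.90-fold), and its other probe set had a log2 ratio of 1.38. Its relative Scd2 was lower in early bulge, with 6908 and 9534 (log2 ratio -0.46) and the same direction on all 3 probe sets. Scd3, a sebaceous desaturase, gave 73.1 and 14.2, so it was above the floor only in early bulge (at least 1.26-fold). The ratio of Scd3 depended on the floor, with a log2 ratio of 1.97 when the floor was the 20th percentile. Near-identical Scd copies can share probes, so their separate values are uncertain.

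All 3 Fads genes, which desaturate polyunsaturated chains (Fads1 and Fads2) or sphingoid bases (Fads3), had the higher signal in ORS. Fads2 gave 33.8 in early bulge and 385 in ORS (at least 6.66-fold higher in ORS). The 3 probe sets of Fads2 were each at least 2-fold apart, with log2 ratios from -2.74 to -1.02. Fads1 gave 476 and 1342 (2.82-fold), with a second probe set at -0.07, and Fads3 gave 165 and 370 (2.25-fold), with a second measured probe set at -1.57. The 3 genes lie next to each other on 1 chromosome with no other protein-coding gene between them, and so do the Scd genes with Scd4. When the log2 signals of all probe sets of a gene were averaged, Fads1 (-0.78) was less than 2-fold apart and Fads2 stayed above that size. Fads3 then had its early bulge mean at the floor, lowered by its remaining probe set, which was below the floor on both arrays, and only a bound of -0.08. Markers of dermal fibroblasts were also higher in ORS. All 9 with a probe set were at least 2-fold higher there, their summed signal was 5292 in early bulge and 58953 in ORS, and their median log2 ratio was -3.60. The part of those cells in the Fads values was not tested.

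**Figure D2:**
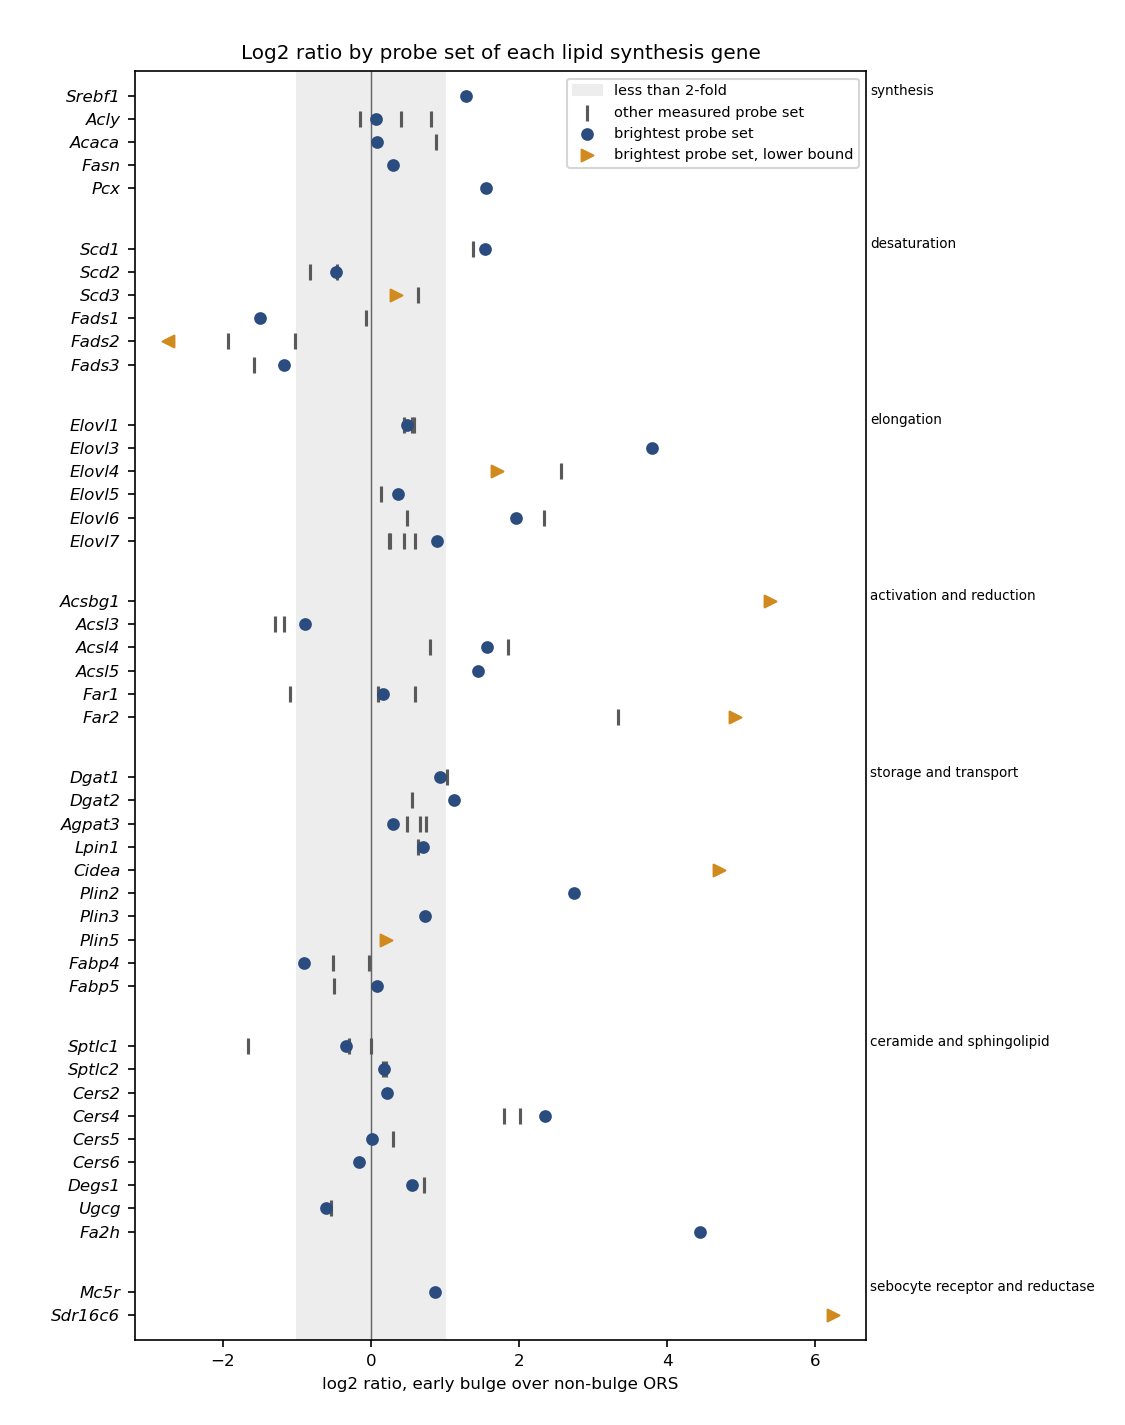
Log2 ratio (early bulge over non-bulge ORS, 1 array each) of the 44 lipid genes by step, with the brightest probe set as a circle, or as a triangle where 1 array was at the floor and the value is a bound, and every other measured probe set as a bar. The grey band is less than 2-fold. Points of elongation and activation genes reach far to the right (Elovl3 at 3.80, Acsbg1 at 5.39), and the 3 Fads genes lie to the left.

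The 6 elongases all had the higher signal in early bulge, and 3 of them by at least 2-fold. Elovl3, which lengthens saturated and monounsaturated chains in sebaceous glands, gave 905 in early bulge and 64.9, just above the floor, in ORS (13.9-fold). Elovl6, which turns palmitate into stearate, gave 9831 and 2516 (3.91-fold), and its other probe sets had log2 ratios of 0.48 and 2.34. Elovl4, which makes the ultra-long chains of barrier ceramides, gave 188 and 42.4 (at least 3.25-fold) and the log2 ratio of a second probe set was at least 2.57. With the floor at the 60th percentile, the bound of Elovl4 fell to 0.13. Elovl7 (log2 ratio 0.89), Elovl1, which supplies very long chains for ceramide (0.48), and Elovl5, which lengthens polyunsaturated chains (0.36), were less than 2-fold apart. The median over the 6 was 1.30.

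Acyl-CoA synthetases and fatty acyl reductases split by paralogue. Acsbg1, a bubblegum-type acyl-CoA synthetase, gave 2424 in early bulge and 15.4 in ORS (at least 41.9-fold). Far2, which reduces acyl-CoA to the fatty alcohols of wax, gave 1745 and 19.1 (at least 30.2-fold), and its second probe set gave 587 and 0.89. Both genes were thus measured in early bulge and below the floor in ORS. Far1, the other reductase, which also serves ether lipids, gave 1693 and 1509 (log2 ratio 0.17), and its other measured probe sets ran from -1.10 to 0.60. Acsl5 gave 6276 and 2307 (2.72-fold) and Acsl4, which prefers arachidonate, 2943 and 993 (2.96-fold). Acsl3, a synthetase of the endoplasmic reticulum and lipid droplets, was the exception, with 1193 in early bulge and 2210 in ORS (log2 ratio -0.89). Its 2 other probe sets were more than 2-fold apart in the same direction (-1.29 and -1.17).

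Of 10 storage and transport genes, 3 were at least 2-fold higher in early bulge and none in ORS. Cidea, which enlarges lipid droplets, gave 1499 and 30.0 (at least 25.9-fold), and Plin2, a coat protein of droplets in many cells, gave 6144 and 916 (6.71-fold). Dgat2, which adds the final chain of a triglyceride, gave 547 and 251 (2.18-fold), with a second probe set at a log2 ratio of 0.56, and it fell below 2-fold after median centring (0.91). Dgat1, which has the same activity and also makes wax esters, gave 1162 and 608 (log2 ratio 0.94). The droplet coat gene Plin3 (0.73), the phosphatidate phosphatase gene Lpin1 (0.71) and the acyltransferase gene Agpat3 (0.30) were higher in early bulge by less than 2-fold. Plin5, a coat protein of oxidative tissues, was near the floor, with 66.8 and 36.8.

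The 2 fatty acid carriers did not follow. Fabp5, the carrier of epidermal cells, gave 24207 and 22876 (log2 ratio 0.08), with another probe set at -0.49. The sign of Fabp5 changed under 5 of 9 alternatives, down to -0.49. Fabp4, a carrier of adipocytes, capillary endothelium and macrophages, had 387 in early bulge and 723 in ORS (-0.90), with other probe sets at -0.51 and -0.02, and was 2-fold apart after median centring (-1.12). Among adipocyte markers, 6 of 8 were below the floor on both arrays, including Adipoq (23.2 and 18.3), Retn and Lep. The 2 above it, Lpl (log2 ratio 0.75) and Lipe (0.50), code for lipases and were higher in early bulge. Lpl alone gave 10533 and 6277, most of the summed signal of the list. Among endothelial markers, 5 of 10 were below the floor on both arrays, Pecam1 and Cdh5 among them. Their summed signal was 523 in early bulge and 885 in ORS. Of the 5 measured, 4 were higher in ORS and 1, Esam (log2 ratio 0.78), in early bulge. Tek, an angiopoietin receptor, was 4.09-fold higher in ORS, Cldn5 had a log2 ratio of -0.63 and Kdr a bound of -0.41. Of 10 macrophage and leukocyte markers, 6 were below the floor on both arrays, including Ptprc, and the summed signals were 671 and 619. The share of these cells in the Fabp4 signal was not tested.

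Genes of ceramide synthesis were less than 2-fold apart by their brightest probe sets, apart from Cers4 and Fa2h. Sptlc1 and Sptlc2, subunits of the enzyme that starts sphingolipid synthesis, had log2 ratios of -0.34 and 0.18. A dim probe set of Sptlc1 gave a bound of -1.66 (53.9 and 183). Cers4, a ceramide synthase of the follicle and sebaceous gland, gave 1732 and 339 (5.11-fold), and all 3 of its probe sets were at least 2-fold higher in early bulge. The other ceramide synthases were close to equal, with log2 ratios of 0.22 for Cers2, 0.02 for Cers5 and -0.16 for Cers6. Degs1, which desaturates dihydroceramide, gave 9130 and 6185 (0.56). Ugcg, which makes glucosylceramide, was dim, with 88.1 and 135 (-0.61). Fa2h, which hydroxylates the fatty acid of ceramides, gave 1665 in early bulge and 76.4, near the floor, in ORS (21.8-fold) on its single probe set. The log2 ratio of Fa2h, 4.45, fell to as low as 3.28 under the alternatives.

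A pair of genes known from sebocytes fell outside these steps. Sdr16c6, a short-chain dehydrogenase/reductase, gave 4375 and 29.7 (at least 75.7-fold), the highest bound of the 44 genes. Without the floor, the log2 ratio of Sdr16c6 was 7.20 and that of Acsbg1 7.30. Mc5r, the melanocortin receptor of sebocytes, was dim on both arrays, with 114 and 62.5 (1.83-fold).

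Probe sets of one gene mostly pointed the same way. For 25 of the 29 lipid genes read by several measured probe sets, all of these lay in 1 direction. Among the 19 genes at least 2-fold apart, 10 were read by several, all 10 in 1 direction, and 6 of them were 2-fold apart on each. The other 9 of the 19 rested on a single measured probe set.

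Neighbouring pathways were listed to place these values, and most genes of the broader lipid lists had the higher signal in early bulge at the deposited scale. Of 68 other measured genes of fatty acid, glycerolipid and sphingolipid metabolism, 15 were at least 2-fold higher in early bulge and 3 in ORS, with a median log2 ratio of 0.26. After median centring the counts higher in early bulge and in ORS were 9 and 8 for the other synthesis and elongation genes (11 and 6 before), 7 and 4 for activation and uptake (8 and 3), 12 and 8 for droplets and glycerolipids (16 and 4) and 10 and 9 for sphingolipids (13 and 7). In the droplet and glycerolipid list 7 of 20 were 2-fold higher in early bulge and none in ORS. They included Mgll, a monoacylglycerol lipase (9.35-fold, 1232 and 132), Gpat3, an acyltransferase (at least 5.82-fold), and Fitm2, which packages droplets (3.12-fold). In the sphingolipid list the ceramidase Acer1 was at least 26.9-fold and Sptlc3 6.51-fold higher in early bulge, whereas the ceramidase Acer3 was 4.23-fold higher in ORS. Acacb, the mitochondrial acetyl-CoA carboxylase, was at least 6.67-fold higher in early bulge, unlike the brightest probe set of Acaca. Acss2, which makes acetyl-CoA from acetate, and Hacd1, a dehydratase of the elongation cycle, were 2.15-fold and 2.06-fold higher in ORS. Fatty acid uptake genes included Cd36 (at least 4.36-fold), Slc27a1 (3.88-fold) and Slc27a4 (3.42-fold), each higher in early bulge. Other measured probe sets had smaller log2 ratios for Acer1 (1.62), Mgll (1.54 to 2.43), Cd36 (1.14 to 1.81) and Slc27a1 (1.27). Those of Acss2 (-0.99) and Hacd1 (-0.73) were less than 2-fold apart.

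Cholesterol synthesis and fatty acid oxidation, pathways close to these, held no gene 2-fold apart at the main settings, and 1 at most under an alternative. Of 17 cholesterol synthesis genes, 9 were higher in early bulge and 8 in ORS (8 and 9 after median centring), with a median log2 ratio of 0.06 and a range from -0.41 (Dhcr7) to 0.85 (Msmo1). Of 21 genes of beta-oxidation, 17 were higher in early bulge and 4 in ORS (11 and 10 after median centring), with a median of 0.25 and a highest value of 0.93 for Acadm. Srebf2, the regulator of cholesterol genes and a relative of Srebf1, had a log2 ratio of 0.58. Of 9 measured genes of the acylceramide barrier, a list that includes Elovl4, 6 were at least 2-fold higher in early bulge, such as Abca12 (at least 3.52-fold) and Pnpla1 (3.40-fold). With the floor at the 60th percentile this count was 2 of 8. The ceramide synthase of that barrier, Cers3, had a log2 ratio of -0.68.

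**Figure D3:**
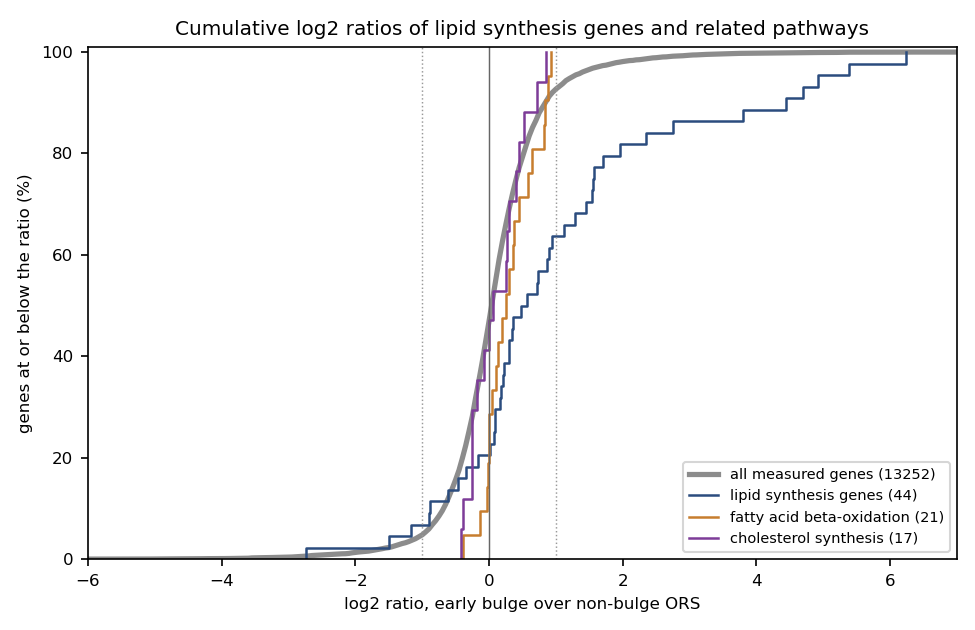
Cumulative share of genes (%) at or below each log2 ratio (early bulge over non-bulge ORS, 1 array each) for the 44 lipid genes, 17 cholesterol synthesis genes, 21 beta-oxidation genes and all 13252 measured genes, with 2-fold marked by dotted lines. The curve of the lipid genes has a long right tail up to 6.24, while cholesterol and oxidation genes end below 1.

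Lipid regulators and most markers of the sebaceous gland and its duct were higher in early bulge together with the lipid genes. All 10 measured regulators had the higher signal there, 9 after median centring or quantile normalization, and 5 were at least 2-fold apart. Pparg, the nuclear receptor of sebocyte and adipocyte differentiation, gave 1244 and 8.81 (at least 21.5-fold). Prdm1 gave 992 and 173 (5.75-fold), Ppara 198 and 70.7 (2.80-fold) and Cebpa 1703 and 658 (2.59-fold). Of 14 measured markers of the sebaceous gland and its duct, none of them among the 44 genes but Pparg and Prdm1 shared with the regulators, 8 were at least 2-fold higher in early bulge and none in ORS. Their median log2 ratio was 1.70 (0.97 on the 12 with a probe set that has no _s, _x or _a suffix), and their summed signal was 53406 and 15808. Krt79 and Aldh3a1 were 45.2-fold and 33.9-fold higher. All 10 keratinocyte markers were measured on both arrays and had the higher signal in early bulge (median 0.87, summed signal 122683 and 70419). The part of sebaceous or duct cells in the lipid gene values was not tested. Of the reporter genes, Sox9 was 6.01-fold higher in early bulge, with another probe set as low as 0.30 on the log2 scale. Krt14 was 2.23-fold higher in early bulge, with other probe sets at log2 ratios from 1.74 to 2.43.

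**Figure D4:**
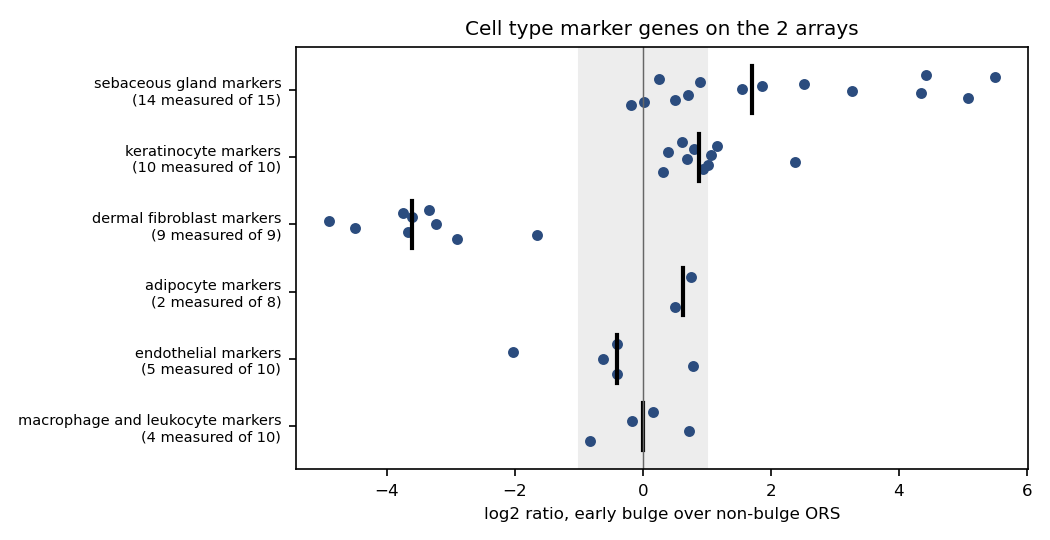
Log2 ratio (early bulge over non-bulge ORS, 1 array each) of the measured markers of 6 cell types, each point a gene and each black line the median, with genes measured and genes with a probe set in the labels. Of 14 sebaceous markers 13 lie right of 0, with a median of 1.70, fibroblast markers left with a median of -3.60, and 2 of 8 adipocyte, 5 of 10 endothelial and 4 of 10 leukocyte markers reached the floor.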

How the data were processed

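The authors deposited 1 intensity per probe set on a linear scale. The tools named in the submitters' processing notes are MAS5 and Affymetrix Expression Console, without versions. Both arrays (45101 probe sets) had a 2% trimmed mean of 500.0, a common scale. MAS5 works with mismatch probes, and dim values are imprecise. Genes were named by the platform annotation as supplied. Only probe sets assigned to 1 gene were used, without the 64 controls, which gave 18193 genes. No build is given in the sources used here. Promoters come from a RefSeq table.

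Each gene took the values of its brightest probe set (mean log2 signal over both arrays). Signals under the floor (40th percentile, 57.8) were set to it, and 13252 genes with at least 1 array at or above it count as measured. With 1 array per group no test was possible, and genes were counted at 2-fold and 4-fold. As alternatives, the arrays were rescaled (quantile normalization, loess with span 0.4, median centring), the floor was moved to the 20th or 60th percentile, dropped, or replaced by a pseudocount of 50, and genes were read from the mean of their probe sets or only from those free of the suffixes _s, _x and _a. The steps were checked on simulated arrays, with known changes in bright genes only and less noise than the SD between probe sets. That check does not cover ratios with 1 array at the floor. The lipid genes and the 15 other lists were chosen with earlier results of these data known. Of those lists, up to 4 measured genes with the largest ratios are named by rule. Outside that rule, these genes were named after their values were seen: Srebf2, Cers3, Abhd5, Dhcr7, Gata6, Lrig1, Plet1, Chpt1, Mgst1, Mgst2 and the cell type markers below the floor. Scripts used Python 3.11.15, pandas 2.3.3 and statsmodels 0.14.6.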

Additional observations from a re-analysis of the deposited data

How the results depend on the processing

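Of the 19 lipid genes at least 2-fold apart, 15 stayed at least 2-fold apart in the same direction under each of the 9 alternatives that gave them a value, and none changed sign. Sizes moved most for genes near or below the floor on 1 array, such as Acsbg1 (log2 ratio from 3.82 to 7.30), Far2 (3.34 to 6.51), Sdr16c6 (4.67 to 7.20) and Fads2 (-3.51 to -1.16). The exceptions were Fads1, Fads3, Elovl4 and Dgat2. Of the 25 others, 7 changed sign under at least 1 alternative and 5 became 2-fold apart in the same direction. The count of lipid genes at least 2-fold higher in early bulge ran from 14 to 17, and the median log2 ratio of the lipid genes from 0.30 to 0.72. Of all genes 2-fold apart, 60.4% were higher in early bulge, but 40.9% after median centring. In the counts below, higher means at least 2-fold higher, and values in parentheses are those of the main settings. The causes of the differences below were not tested.

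Median centring gave 5 lipid genes higher in ORS (main 3), 1 each in activation and in storage (0), and 1019 of all genes (634). It left 1 gate gene and 1 keratinocyte marker 2-fold higher in early bulge (2 and 4). It and quantile normalization put 1 leukocyte marker higher in ORS (0). Quantile and loess scaling left 1 other synthesis gene higher in ORS (2), and loess put 1 oxidation gene at 2-fold (0).

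When the floor was the 20th percentile, 1870 of all genes were higher in early bulge (968) and 984 in ORS, and with none 2731 and 1601. Both settings gave 2 desaturases higher in early bulge (1) and a median of 4.04 for Mc5r and Sdr16c6 (3.56). With a floor at the 60th percentile Mc5r dropped out and Sdr16c6 alone had a bound of 4.67 (6.24), 616 of all genes were higher in early bulge, the elongase median was 0.69 (1.30) and the barrier list had 2 genes (6) and a median of 0.19 (1.19), or 0.62 with the pseudocount. Endothelial markers higher in ORS numbered 2, 0 and 4 at the 20th and 60th percentile and with no floor (1). No floor also gave 1 endothelial marker, 1 leukocyte marker and 3 adipocyte markers higher in early bulge (0 each), 1 adipocyte marker higher in ORS (0), and 6 and 1 uptake and activation genes higher in early bulge and in ORS (3 and 0).

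Averaging probe sets gave medians of -0.33 for desaturation (-0.82) and 0.76 for synthesis (0.30). It put 1 gene each of desaturation (3), activation (0), storage (0) and ceramide synthesis (0) higher in ORS, and 0 other synthesis genes higher on either array (1 and 2). Without suffixed probe sets, 0 synthesis genes (2) and 1 ceramide gene (2) were higher in early bulge, 1 activation gene (0) and 0 other synthesis genes (2) in ORS, and the sebaceous marker median was 0.97 (1.70). Under both, 1 cholesterol gene was higher in early bulge (0). No paired analysis was possible because each group has 1 array. Dim signals near the floor limit Scd3, Plin5, Ugcg and Mc5r, and 8 ratios are bounds.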
